A study of Homo sapiens with 89 samples.

Results

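The transcripts described here encode 10 amino acid transporters: SLC7A11, SLC7A5, SLC3A2, SLC1A5, SLC1A4, SLC38A1, SLC38A2, SLC7A1, SLC7A3 and SLC6A9. They are defined by gene symbol, were chosen with earlier results of these data known, and make up 10 of the 57905 genes counted. Their RNA was measured by sequencing of polyadenylated RNA in 15 libraries from 2 human neuroblastoma cell lines, 3 libraries in each of 5 groups. The study examined MYCN, a transcription factor of the MYC family, together with the nuclear RNA exosome, the complex that trims and degrades nuclear RNA from its 3' end.

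The first pair of groups is IMR-32, a line of adrenergic type with amplified MYCN. IMR-32 cells with an active shRNA against EXOSC10, an exonuclease subunit of the exosome, had received 1 µg/ml doxycycline, and control cells had received none. The control columns of the deposited table carry the name EtOH, so these cells may have received a solvent, which the labels do not state. That table is named as RNA-seq and its columns do not name the assay. It was taken here to hold the polyadenylated RNA libraries, although libraries of newly made RNA (4sU) of the same line bear similar labels. The other 3 groups are SHEP, a line of mesenchymal type. The first is labelled as expressing wild type MYCN and the second as expressing MYCN 3A, a triple mutant with deficient RNA binding, both switched on with 1 µg/ml doxycycline. The third is labelled no MYCN and had no doxycycline. Doxycycline and the shRNA, or doxycycline and a MYCN form, therefore cannot be told apart in a comparison with a group that had no doxycycline, while wild type and 3A libraries shared the drug. The labels do not say whether replicates were separate cultures, so p-values may measure technical spread alone. In bulk RNA, fewer cells of a type and less RNA per cell cannot be told apart.

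IMR-32 libraries held 16394148 to 26193478 counts and SHEP libraries 11638859 to 15353505. EXOSC10 averaged 47.3 ± 1.54 CPM in shEXOSC10 cells and 68.6 ± 5.48 CPM in control cells (SD, n = 3 each), where CPM is counts per 1000000 of a library's total, scaled here with TMM factors. The labels of the SHEP groups were not borne out by the MYCN count, which was 0 to 10 in each of the 9 libraries: 2, 0 and 0 in those labelled wild type, 10, 0 and 0 in those labelled 3A and 4, 0 and 0 in those labelled no MYCN. Why the MYCN counts were this low in each group was not tested, and every direction given for SHEP rests on the labels. In IMR-32, MYCN averaged 599 ± 5.47 CPM in shEXOSC10 cells and 1097 ± 15.3 CPM in control cells. Adrenergic marker genes summed to 1905 to 1976 CPM in shEXOSC10 cells, 3260 to 3503 CPM in control cells and 70.0 to 87.7 CPM in SHEP. Mesenchymal markers summed to 833 to 867 CPM in shEXOSC10 cells, 687 to 730 CPM in control cells and 5963 to 7305 CPM in SHEP. Leukocyte, epithelial and endothelial markers summed to 1.52 CPM at most in any library.

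Amino acid transporters of the SLC families carry amino acids across the plasma membrane, many as exchangers that take up one amino acid and release another. SLC3A2, known as CD98, is a heavy chain that brings light chains such as SLC7A5 and SLC7A11 to the cell surface. SLC7A5, known as LAT1, imports leucine and other large neutral amino acids, and SLC7A11, known as xCT, imports cystine for glutathione synthesis in exchange for glutamate. SLC1A5 and SLC1A4 exchange small neutral amino acids, glutamine being the best known substrate of SLC1A5. SLC38A1 and SLC38A2 take up glutamine and alanine together with sodium, SLC7A1 and SLC7A3 carry arginine and lysine, and SLC6A9 takes up glycine. When amino acids are short, the transcription factor ATF4 raises several of these genes through C/EBP-ATF response elements, and MYC proteins bind the E-box CACGTG.

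Promoter windows of 300 bases, 250 before and 50 after a start site, were at hand for 8 of the 10 genes (14 windows, RefSeq, GRCh38.p14). No window was at hand for SLC7A11 and SLC7A3, so these genes were not searched. The windows were searched on both strands for TGATGNAA, a form of the C/EBP-ATF element, and for CACGTG. The motifs can share letters but did not in these windows. TGATGNAA was present in 5 of the 14 windows, 1 each of SLC3A2, SLC1A5, SLC1A4, SLC38A1 and SLC7A1, and in 3.62% of 35116 windows of all genes. CACGTG was present in 2 of the 14, 1 each of SLC7A5 and SLC1A5, and in 7.26% of all windows. A match describes letters in the window and does not show binding. The windows below are shown because they hold one motif, the other, or neither. They belong to the heavy chain SLC3A2 (chr11:62881449-62881748, plus strand), the arginine transporter SLC7A1 (chr13:29595639-29595938, minus strand) and the leucine transporter SLC7A5 (chr16:87869458-87869757, minus strand). The last window, of SLC38A2 (chr12:46372724-46373023, minus strand), held neither motif. The window of the glycine transporter SLC6A9 held neither motif too. Sequence outside the windows was not searched. Of the genes with no match in the window, SLC6A9 fell on EXOSC10 depletion while SLC38A2 was not called. SLC3A2 had 3 windows, and the window shown is its only window with a match. Capitals mark TGATGNAA, on the opposite strand in SLC3A2, or CACGTG. SLC38A2 has no capitals because neither was present.
SLC3A2: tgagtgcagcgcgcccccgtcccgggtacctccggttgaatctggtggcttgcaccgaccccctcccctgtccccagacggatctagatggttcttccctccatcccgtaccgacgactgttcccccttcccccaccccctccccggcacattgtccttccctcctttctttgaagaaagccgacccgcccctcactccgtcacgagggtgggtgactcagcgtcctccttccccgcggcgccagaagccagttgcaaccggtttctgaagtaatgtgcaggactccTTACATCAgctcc
SLC7A1: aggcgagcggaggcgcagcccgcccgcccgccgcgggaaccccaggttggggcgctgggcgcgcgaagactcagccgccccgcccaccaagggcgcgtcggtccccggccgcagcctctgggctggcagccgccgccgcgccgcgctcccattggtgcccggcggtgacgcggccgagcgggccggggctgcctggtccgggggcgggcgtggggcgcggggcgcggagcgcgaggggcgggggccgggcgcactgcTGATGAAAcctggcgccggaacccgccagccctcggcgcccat
SLC7A5: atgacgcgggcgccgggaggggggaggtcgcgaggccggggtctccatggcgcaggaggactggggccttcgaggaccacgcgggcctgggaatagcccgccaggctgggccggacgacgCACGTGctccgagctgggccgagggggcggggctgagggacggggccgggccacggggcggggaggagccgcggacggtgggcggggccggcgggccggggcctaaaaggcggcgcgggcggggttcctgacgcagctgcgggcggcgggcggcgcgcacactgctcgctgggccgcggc
SLC38A2: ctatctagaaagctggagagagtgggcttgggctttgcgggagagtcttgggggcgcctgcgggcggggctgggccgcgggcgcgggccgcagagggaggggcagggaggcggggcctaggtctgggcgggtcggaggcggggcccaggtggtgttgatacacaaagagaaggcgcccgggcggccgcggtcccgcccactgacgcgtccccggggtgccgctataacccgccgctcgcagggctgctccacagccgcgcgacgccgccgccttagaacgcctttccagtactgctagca

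Per gene length, SLC1A5 was the most abundant of the 10 transcripts in each of the 5 groups. The scale is TPM, counts divided by the gene length of the deposited table and scaled to a sum of 1000000 per library. SLC1A5 averaged 408 ± 9.97 TPM in shEXOSC10 cells and 671 ± 25.9 TPM in control cells, then 421 ± 20.2 TPM in SHEP labelled wild type, 332 ± 8.9 TPM labelled 3A and 263 ± 3.89 TPM labelled no MYCN (SD, n = 3 each). Its range did not overlap that of the next gene in any group. SLC7A3, the other cationic transporter, had 0 counts in all 15 libraries, which allows up to 3 counts, or 0.115 to 0.258 CPM, per library.

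The order below SLC1A5 differed between the IMR-32 groups. In shEXOSC10 cells it ran SLC38A2 (240 TPM), SLC38A1 (200 TPM), SLC3A2 (140 TPM), SLC7A5 (131 TPM), SLC7A1 (96.9 TPM), SLC1A4 (22.0 TPM), SLC6A9 (16.9 TPM) and SLC7A11 (11.5 TPM), with no overlap between neighbours. In control cells it ran SLC7A5 (297 TPM), SLC38A1 (265 TPM), SLC3A2 (255 TPM), SLC38A2 (253 TPM), SLC7A1 (156 TPM), SLC7A11 (52.9 TPM), SLC1A4 (41.7 TPM) and SLC6A9 (29.7 TPM), and from SLC7A5 to SLC38A2 each neighbour overlapped the next. SLC7A11 thus stood last of the 9 detected genes in shEXOSC10 cells, below SLC1A4 and SLC6A9, which it exceeded in control cells.

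In SHEP the order was the same in the 3 groups: SLC1A5, SLC3A2, SLC7A5, SLC38A2, SLC7A1, SLC7A11, SLC38A1, SLC1A4 and SLC6A9. SLC3A2 overlapped SLC7A5 in libraries labelled wild type, and SLC7A5 overlapped SLC38A2 in those labelled no MYCN. SLC38A1 averaged 200 TPM in shEXOSC10 cells and 265 TPM in control cells of IMR-32, while in SHEP it averaged 13.7 TPM in libraries labelled wild type, 7.43 TPM labelled 3A and 5.48 TPM labelled no MYCN. SLC1A4 was also low in SHEP, at 63 to 138 counts a library, and SLC6A9 lower still, at 1 to 22 counts. The lines are set side by side with no test, because the tables were counted and normalised separately.

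**Figure D1:**
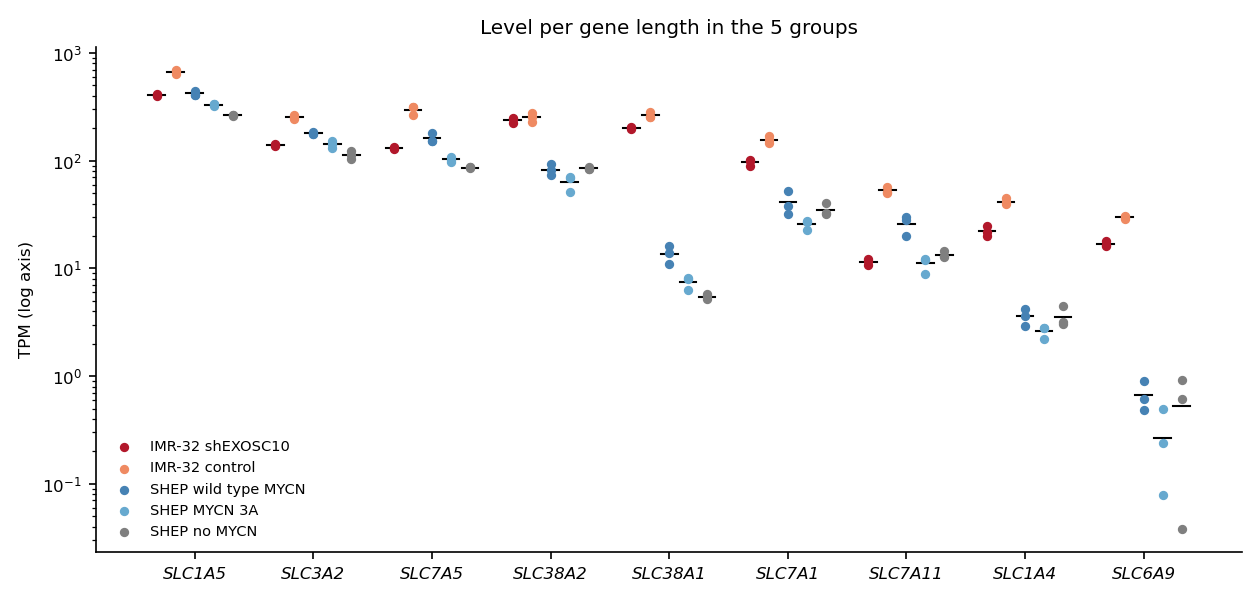
Level of the 9 detected transporter genes in TPM (log axis). Points are libraries, bars are means of 3 libraries, and colours are the 5 groups. SLC1A5 stands highest in each group, and SLC38A1, SLC1A4 and SLC6A9 lie far lower in the SHEP groups than in the IMR-32 groups.

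Added over the 10 genes, the transporter transcripts came to 1268 ± 30.0 TPM in shEXOSC10 cells and 2023 ± 106 TPM in control cells. The sums were 930 ± 59.6 TPM in SHEP labelled wild type, 687.4 ± 24.4 TPM labelled 3A and 605.9 ± 3.5 TPM labelled no MYCN. Within each line the sums of the groups did not overlap.

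Depletion of EXOSC10 in IMR-32 was compared with control cells without doxycycline to ask which transcripts change when this exonuclease is short. Transporter transcripts were lower: 8 of the 9 tested genes fell, 0 rose (0 also at an unadjusted p under 0.05, and by DESeq2), and SLC38A2 was not called. The cystine transporter SLC7A11 had the lowest fold change of them. Among all 17103 genes tested, 13.7% were called lower and 13.5% higher, 27.1% in all. A gene was called when its Benjamini-Hochberg adjusted p, over all tested genes, from edgeR's quasi-likelihood F test was under 0.05. The median log2 change over the 9 genes was -0.82, where the median of all tested genes was 0.00. The CPM ranges of the groups did not overlap at 8 of the 9, compared with 38.4% of all tested genes.

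SLC7A11 (ENSG00000151012, chr4:139085251-139163503 in hg19) had 31.8, 35.2 and 36.5 CPM in shEXOSC10 libraries, against 155, 152 and 166 CPM in control libraries. Each shEXOSC10 library lay far below each control library. The log2 change was -2.19 (SE 0.07, edgeR adjusted p = 1.3e-39), a level 4.57-fold lower, and rank 21 from the lowest among the 17103 tested genes.

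SLC7A5 (ENSG00000103257, chr16:87863629-87903094) had 188, 194 and 199 CPM in shEXOSC10 libraries, against 468, 396 and 447 CPM in control libraries. The groups were apart, and the log2 change was -1.17 (SE 0.05, edgeR adjusted p = 1.1e-31). Its heavy chain SLC3A2 (ENSG00000168003, chr11:62623518-62656352) had 224, 226 and 235 CPM in shEXOSC10 libraries, against 425, 395 and 422 CPM in control libraries. SLC3A2 fell by 0.86 on the log2 scale (SE 0.05, edgeR adjusted p = 1.1e-25), again without overlap.

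Both exchangers of small neutral amino acids fell. SLC1A5 (ENSG00000105281, chr19:47278140-47291851) had 415, 417 and 434 CPM in shEXOSC10 libraries, against 711, 668 and 699 CPM in control libraries, a log2 change of -0.71 (SE 0.04, edgeR adjusted p = 1.7e-23). SLC1A4 (ENSG00000115902, chr2:65215611-65250999) had 46.6, 43.0 and 52.7 CPM in shEXOSC10 libraries, against 97.9, 85.1 and 86.1 CPM in control libraries, a log2 change of -0.91 (SE 0.07, edgeR adjusted p = 7.0e-17). Neither gene's groups overlapped.

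The sodium-coupled glutamine transporters, which lie near each other on chromosome 12, were not alike in their calls. SLC38A1 (ENSG00000111371, chr12:46576846-46663800) had 615, 639 and 615 CPM in shEXOSC10 libraries, against 810, 795 and 857 CPM in control libraries, and fell by 0.40 (SE 0.04, edgeR adjusted p = 1.1e-12). SLC38A2 (ENSG00000134294, chr12:46751972-46766650) had 457, 503 and 515 CPM in shEXOSC10 libraries, against 478, 518 and 556 CPM in control libraries. Its groups overlapped, with a log2 change of -0.07 (SE 0.05, edgeR adjusted p = 0.265). Without control replicate 1 it was called, at a log2 change of -0.13 (edgeR adjusted p = 0.0324), and over the 11 alternatives its adjusted p ran from 0.0324 to 0.808. Whether the 2 genes' changes differ was not tested.

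SLC7A1 (ENSG00000139514, chr13:30083547-30169825) had 239, 215 and 240 CPM in shEXOSC10 libraries, against 378, 346 and 392 CPM in control libraries, a log2 change of -0.69 (SE 0.05, edgeR adjusted p = 1.8e-19). SLC6A9 (ENSG00000196517, chr1:44457172-44497139) had 28.6, 26.4 and 26.0 CPM in shEXOSC10 libraries, against 49.9, 45.8 and 47.0 CPM in control libraries, a log2 change of -0.82 (SE 0.09, edgeR adjusted p = 7.1e-12). Both genes' groups were apart. SLC6A9 shares 404 bases of its exons with CCDC24 on the opposite strand, and counting by strand is stated for the SHEP table alone. The lower transporter levels stood beside the lower MYCN given above and shifts in markers of the lines' types. Of 9 adrenergic markers 8 fell and 1 rose. Of 7 tested mesenchymal markers 2 rose, COL1A1 (log2 change 0.66) and VIM (0.47), and 2 fell, TWIST1 (-1.05) and FN1 (-0.24). The part of these shifts in the transporter changes was not tested.

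**Figure D2:**
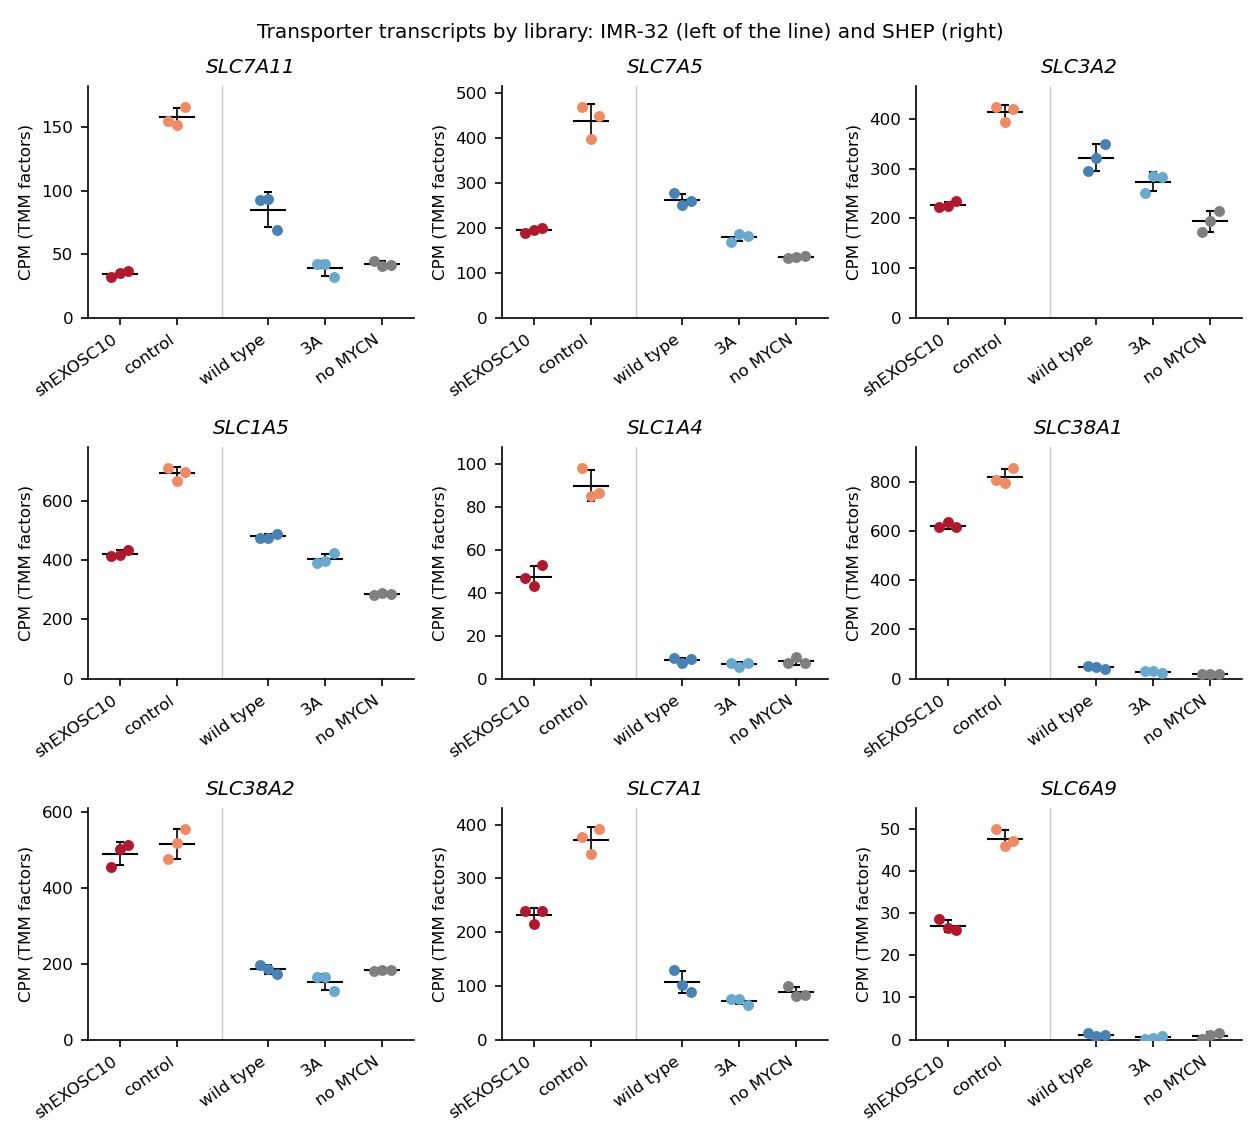
CPM of the 9 detected transporter genes in each library (y axis from 0), with the group mean and SD as black lines. IMR-32 libraries stand left of the grey line and SHEP libraries right of it, under their labels. In IMR-32 the shEXOSC10 libraries lie below the control libraries at each gene but SLC38A2.

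The libraries labelled wild type MYCN were compared with those labelled no MYCN to ask how transporter transcripts differ when this protein is induced. Of the 9 tested genes, 5 rose, 0 fell (0 also at an unadjusted p under 0.05, and by DESeq2) and 4 were not called. Of all 14923 genes tested in SHEP, 10.9% were called higher and 11.3% lower, 22.2% in all, that is 1634 higher and 1681 lower. With library totals in place of TMM the split was 1163 higher and 2147 lower, and the same number of transporter genes, 5, was called higher. The median log2 change over the 9 genes was 0.73, against 0.00 for all tested genes. The groups did not overlap at 5 of the 9, compared with 37.5% of all tested genes. Of the mesenchymal markers 3 of 9 rose and 3 fell, COL1A1 by 1.81 on the log2 scale, and their part in the transporter changes was not tested. The genes that rose encode the glutamine transporter SLC38A1, the light chains SLC7A11 and SLC7A5, their heavy chain SLC3A2 and the exchanger SLC1A5.

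MYCN 3A libraries were compared with the same libraries labelled no MYCN, so the 2 comparisons share those 3 libraries. With 3A, 4 of the 9 tested genes rose, 1 fell and 4 were not called. Background calls were 12.7% higher and 12.8% lower, 25.5% in all, or 1893 higher and 1913 lower. With library totals the split was 1232 higher and 2928 lower, the median log2 change of all genes was -0.14 in place of -0.04, and 4 transporter genes were again called higher. The median log2 change over the 9 genes was -0.12. The groups did not overlap at 6 of the 9, compared with 41.3% of all tested genes. The call of the 1 gene that fell, SLC38A2, did not hold in 6 of 15 alternatives. EXOSC10 itself averaged 61.5 ± 4.02 CPM in libraries labelled 3A and 81.1 ± 10.5 CPM in those labelled no MYCN (log2 change -0.40, edgeR adjusted p = 0.00954, and 0.0565 to 0.0787 in the 2 of 15 alternatives that lost the call). Of 9 mesenchymal markers 5 fell with 3A, among them COL1A1 (log2 change -0.89) and FN1 (-0.99), at sums of 5963 to 6297 CPM in 3A libraries and 6899 to 7305 CPM in no MYCN libraries. The part of either in the transporter changes was not tested. The rises were those of SLC38A1, SLC1A5, SLC3A2 and SLC7A5.

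The libraries labelled wild type and 3A, both with doxycycline and both used in the comparisons with no MYCN too, were compared directly to ask what differs between them. The MYCN counts do not measure how much of each form was made, so its amount and the mutation cannot be told apart. Of the 9 tested genes, 7 were higher with wild type, 0 were lower (0 also at an unadjusted p under 0.05, and by DESeq2, which called 6 higher), and SLC1A4 and SLC6A9 were not called. Of all tested genes, 15.8% were called higher and 14.5% lower, 30.3% in all. The median log2 difference over the 9 genes was 0.56, against 0.00 for all tested genes, and the groups did not overlap at 7 of the 9, compared with 40.4% of all tested genes. Without wild type replicate 2, 4 genes were called higher: SLC7A11, SLC7A5, SLC38A1 and SLC7A1. Mesenchymal markers moved beside these genes, with 6 of 9 higher (3 without 3A replicate 2) and 2 lower with wild type over 3A, at sums of 7088 to 7229 CPM in wild type libraries and 5963 to 6297 CPM in 3A libraries. EXOSC10 itself averaged 93.2 ± 11.6 CPM in libraries labelled wild type and 61.5 ± 4.02 CPM in those labelled 3A (log2 0.60, edgeR adjusted p = 2.5e-04). The part of either in the transporter differences was not tested.

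SLC7A11 had 92.8, 93.2 and 68.9 CPM in libraries labelled wild type, 42.1, 42.6 and 31.9 CPM in those labelled 3A and 44.8, 40.8 and 41.3 CPM in those labelled no MYCN. The wild type libraries were apart from both other groups, which overlapped each other. The log2 change was 1.01 for wild type over no MYCN (SE 0.12, edgeR adjusted p = 2.8e-06) and -0.12 for 3A over no MYCN (SE 0.13, edgeR adjusted p = 0.517). Wild type over 3A it was 1.13 (SE 0.13, edgeR adjusted p = 9.1e-07), a level 2.19-fold higher. Replicate 3 was the lowest library of the wild type group and of the 3A group.

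SLC7A5 had 277, 251 and 258 CPM in libraries labelled wild type, 169, 185 and 181 CPM in those labelled 3A and 132, 134 and 137 CPM in those labelled no MYCN. The 3 groups were apart from one another, with 3A between the other two. The log2 change was 0.97 for wild type over no MYCN (SE 0.08, edgeR adjusted p = 8.8e-09), 0.41 for 3A over no MYCN (SE 0.08, edgeR adjusted p = 7.3e-04) and 0.56 for wild type over 3A (SE 0.08, edgeR adjusted p = 1.9e-05).

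SLC3A2 had 296, 323 and 350 CPM in libraries labelled wild type, 251, 286 and 284 CPM in those labelled 3A and 172, 195 and 216 CPM in those labelled no MYCN. The groups did not overlap. The log2 change was 0.73 for wild type over no MYCN (SE 0.09, edgeR adjusted p = 3.7e-06) and 0.49 for 3A over no MYCN (SE 0.09, edgeR adjusted p = 5.5e-04). Wild type over 3A it was 0.24 (SE 0.09, edgeR adjusted p = 0.05, just under the threshold). That last call was lost in 10 of 15 alternatives (adjusted p = 0.0509 to 0.179, over all 15 from 0.00385), namely with DESeq2, DESeq2 size factors or the 2 groups alone, and without wild type replicate 2 or 3, any 3A replicate, or no MYCN replicate 2 or 3.

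SLC1A5 had 476, 475 and 488 CPM in libraries labelled wild type, 391, 398 and 424 CPM in those labelled 3A and 283, 290 and 286 CPM in those labelled no MYCN. Again no groups overlapped. The log2 change was 0.74 for wild type over no MYCN (SE 0.08, edgeR adjusted p = 2.4e-07), 0.50 for 3A over no MYCN (SE 0.08, edgeR adjusted p = 9.6e-05) and 0.25 for wild type over 3A (SE 0.08, edgeR adjusted p = 0.0161). The call of wild type over 3A was lost without wild type replicate 2 (edgeR adjusted p = 0.0513) or 3A replicate 2 (0.0639), in alternatives that ran from 0.00181 to 0.0639.

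SLC38A1 had 52.5, 47.9 and 39.1 CPM in libraries labelled wild type, 28.9, 29.0 and 23.5 CPM in those labelled 3A and 17.6, 19.1 and 17.1 CPM in those labelled no MYCN. Its groups were apart in the same order as those of SLC7A5, SLC3A2 and SLC1A5. The log2 change was 1.37 for wild type over no MYCN (SE 0.13, edgeR adjusted p = 1.1e-07), 0.60 for 3A over no MYCN (SE 0.13, edgeR adjusted p = 0.00259) and 0.78 for wild type over 3A (SE 0.13, edgeR adjusted p = 1.1e-04). In IMR-32 this gene had 615 to 857 CPM.

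SLC38A2 had 197, 186 and 174 CPM in libraries labelled wild type, 165, 165 and 127 CPM in those labelled 3A and 182, 184 and 184 CPM in those labelled no MYCN. Wild type overlapped no MYCN, with a log2 change of 0.02 (SE 0.09, edgeR adjusted p = 0.926), and 3A lay below both. The log2 change of 3A over no MYCN was -0.27 (SE 0.09, edgeR adjusted p = 0.0386) and that of wild type over 3A was 0.28 (SE 0.09, edgeR adjusted p = 0.0249). The call of 3A over no MYCN was lost without wild type replicate 2, 3A replicate 3 or any no MYCN replicate, and with DESeq2 size factors (edgeR adjusted p = 0.0519 to 0.222, over all 15 alternatives from 0.00566). The call of wild type over 3A was lost without wild type replicate 1 or 2 or 3A replicate 3 (edgeR adjusted p = 0.0728 to 0.156, over all 15 from 0.00341).

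SLC7A1 had 130, 102 and 89.2 CPM in libraries labelled wild type, 75.3, 75.2 and 65.0 CPM in those labelled 3A and 99.9, 81.3 and 82.9 CPM in those labelled no MYCN. Wild type overlapped no MYCN and was apart from 3A, which was apart from no MYCN too. The log2 difference of wild type over 3A was 0.58 (SE 0.12, edgeR adjusted p = 7.9e-04). Against no MYCN, neither form was called: 0.28 for wild type (SE 0.12, edgeR adjusted p = 0.0866) and -0.29 for 3A (SE 0.12, edgeR adjusted p = 0.069). Both gained a call in some alternatives, over which the adjusted p ran from 0.0128 to 0.46 for wild type and from 0.00936 to 0.331 for 3A. A replicate block was among those alternatives for both forms. Wild type was called at 0.40 without wild type replicate 3 (edgeR adjusted p = 0.0128) and at 0.38 without no MYCN replicate 1 (0.0385), and with no filter on low counts. The 3A form was called in 6 of 15 alternatives, at -0.39 to -0.28, among them those without wild type replicate 1 or 3, with library totals, with no filter and with the 2 groups alone (edgeR adjusted p = 0.00936 to 0.0356).

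SLC1A4 averaged 8.48 ± 1.27 CPM in libraries labelled wild type, 6.60 ± 0.928 CPM in those labelled 3A and 8.09 ± 1.78 CPM in those labelled no MYCN. SLC6A9 averaged 1.16 ± 0.319 CPM in libraries labelled wild type, 0.512 ± 0.403 CPM in those labelled 3A and 0.897 ± 0.772 CPM in those labelled no MYCN (SD, n = 3 each). For both genes each pair of groups overlapped and no difference was called. SLC6A9 had 1 to 22 counts a library and log2 changes with an SE of 0.66 to 0.74, so a difference of the size seen at SLC7A11 was not detectable at this depth.

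**Figure D3:**
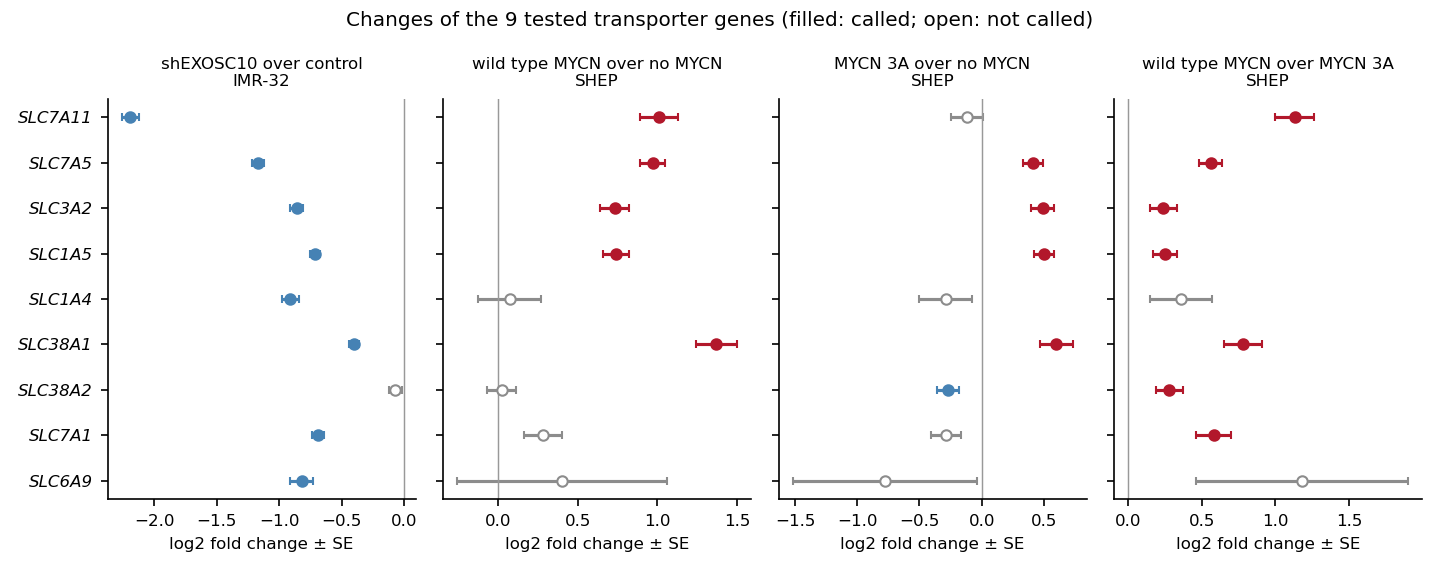
Log2 fold change with its SE (x axis) of the 9 tested transporter genes in the 4 comparisons. Filled points were called by edgeR, in red where higher and in blue where lower, and open points were not called. The SHEP groups go by their labels, x axes differ in range, and SLC7A11 is lowest on EXOSC10 depletion, at -2.19.

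Transcripts of the light chains were set against that of their shared heavy chain as ratios of TPM in each library. The ratio of SLC7A5 to SLC3A2 was 0.928, 0.945 and 0.935 in shEXOSC10 libraries, against 1.22, 1.11 and 1.17 in control libraries. That of SLC7A11 to SLC3A2 was 0.0773, 0.0844 and 0.0845 in shEXOSC10 libraries, against 0.199, 0.209 and 0.214 in control libraries. Both ratios were lower in shEXOSC10 cells, without overlap, as follows from light chains that fell further than the heavy chain.

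In SHEP the SLC7A11 to SLC3A2 ratio was 0.170, 0.157 and 0.107 in libraries labelled wild type, 0.0910, 0.0810 and 0.0612 in those labelled 3A and 0.141, 0.114 and 0.104 in those labelled no MYCN. Wild type lay above 3A and overlapped no MYCN, and 3A lay below both. The SLC7A5 to SLC3A2 ratio was 1.03, 0.861 and 0.813 in libraries labelled wild type, 0.741, 0.715 and 0.705 in those labelled 3A and 0.843, 0.758 and 0.700 in those labelled no MYCN. Wild type was apart from 3A and overlapped no MYCN, which overlapped 3A. Both ratios were highest in replicate 1 and lowest in replicate 3 in each SHEP group. At each replicate number wild type lay above no MYCN in both ratios. The labels describe no pairing by number, and the ranges given here take no account of it. The ratios are a description of RNA with no test, and say nothing of the protein complexes.

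**Figure D4:**
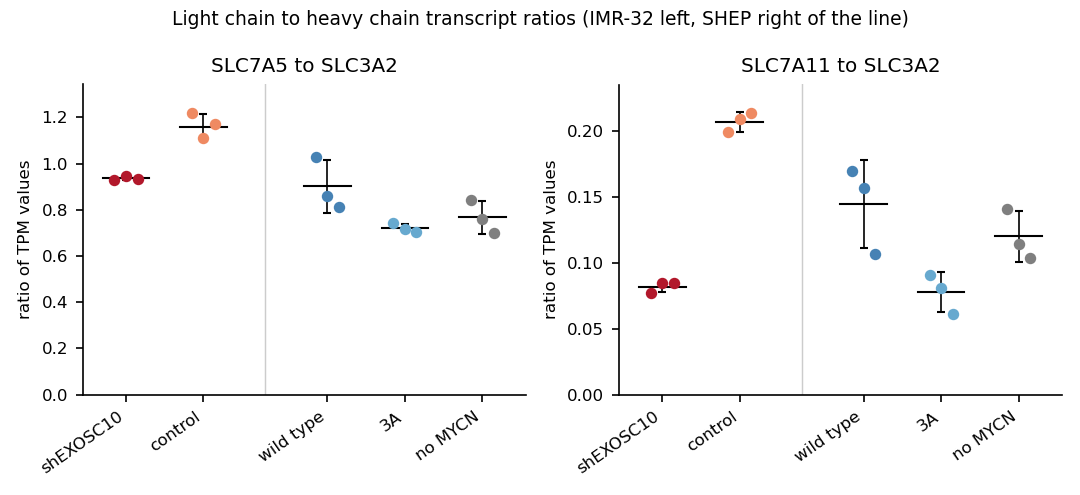
Ratio of the TPM of SLC7A5 (left) and SLC7A11 (right) to that of SLC3A2 in each library, with group mean and SD (y axes from 0). Means of the SLC7A11 ratio were 0.082 in shEXOSC10 cells and 0.207 in control cells, then 0.145, 0.0777 and 0.12 in SHEP labelled wild type, 3A and no MYCN.

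Genes around the transporters were described from 7 lists chosen with results of these data known. Counts for 3A over no MYCN moved by over 1.5 times in each of these lists when single libraries were left out, as did some for the other comparisons, and those left out of the text are shown in the plot of the lists. Of all tested genes, 13.5% rose and 13.7% fell on EXOSC10 depletion, 10.9% rose and 11.3% fell with wild type over no MYCN, and 15.8% were higher and 14.5% lower with wild type than 3A. These shares are the background of each list count. Of 28 other amino acid transporters tested in IMR-32, 11 rose and 5 fell on EXOSC10 depletion, with a median log2 change of 0.02. The rises numbered 7 without shEXOSC10 replicate 2. The taurine transporter SLC6A6 averaged 110 ± 5.35 CPM in shEXOSC10 cells and 183 ± 8.11 CPM in control cells (log2 change -0.74, SE 0.06, edgeR adjusted p = 2.4e-18). SLC38A5, a glutamine transporter related to SLC38A1, fell by 0.55 (SE 0.07, edgeR adjusted p = 5.6e-09). SLC16A10, which carries aromatic amino acids, was at 50.0 ± 2.25 CPM in shEXOSC10 cells and 28.6 ± 2.24 CPM in control cells (log2 change 0.81, SE 0.09, edgeR adjusted p = 7.0e-12). The other transporters moved in both directions, while the 8 calls among the transporters described above were falls. Those described above were chosen with earlier results of these data known, so this contrast describes the chosen genes alone.

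In SHEP, 22 of the other transporters were tested. With wild type over no MYCN 4 rose and 3 fell, with a median log2 change of -0.07, beside a background of 10.9% and 11.3%. Between wild type and 3A 4 were higher and 4 lower. The higher ones numbered 2 without wild type replicate 1, 3A replicate 1 or any no MYCN replicate, and the lower ones 2 without wild type replicate 1 or 3 or 3A replicate 2 or 3. The neutral amino acid transporter SLC6A15 averaged 28.3 ± 3.97 CPM in libraries labelled wild type, 27.9 ± 4.44 CPM in those labelled 3A and 15.6 ± 1.02 CPM in those labelled no MYCN. Its log2 change was 0.86 for wild type (SE 0.14, edgeR adjusted p = 1.3e-04) and 0.84 for 3A (SE 0.14, edgeR adjusted p = 2.9e-04). SLC6A6 averaged 34.5 ± 6.87 CPM in libraries labelled wild type, 20.7 ± 3.62 CPM in those labelled 3A and 19.5 ± 2.61 CPM in those labelled no MYCN, and wild type lay above 3A (log2 0.74, SE 0.16, edgeR adjusted p = 0.00116). SLC7A6, a light chain of SLC3A2 for cationic and neutral amino acids, lay above 3A in wild type libraries too (log2 0.54, SE 0.11, edgeR adjusted p = 5.7e-04). In the other direction, SLC43A2, a transporter of large neutral amino acids, averaged 3.10 ± 0.608 CPM in libraries labelled wild type and 7.26 ± 1.75 CPM in those labelled 3A (log2 -1.23, SE 0.26, edgeR adjusted p = 0.00108). SLC38A10, of the SLC38 family, averaged 97.3 ± 1.63 CPM in libraries labelled wild type and 134 ± 8.89 CPM in those labelled no MYCN (log2 change -0.46, SE 0.09, edgeR adjusted p = 4.4e-04).

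Of 14 tested genes on the list of ATF4, its relatives and partners and the eIF2 kinases and phosphatase subunits upstream of it, 9 fell and 1 rose on EXOSC10 depletion, with a median log2 change of -0.45. ATF4 averaged 218 ± 4.45 CPM in shEXOSC10 cells and 341 ± 11.4 CPM in control cells (log2 change -0.65, SE 0.05, edgeR adjusted p = 3.3e-19). ATF5, a relative of ATF4, was at 22.5 ± 3.7 CPM in shEXOSC10 cells and 99.3 ± 5.07 CPM in control cells (log2 change -2.13, SE 0.08, edgeR adjusted p = 8.3e-33). CEBPB, a partner of ATF4 at response elements, fell by 1.82 (SE 0.13, edgeR adjusted p = 7.9e-20). Among the eIF2 kinases, EIF2AK1 fell (-0.24), EIF2AK3 rose (0.24), and EIF2AK4 (-0.15) and EIF2AK2 (0.11) were not called. The single rise was lost without shEXOSC10 replicate 1 or 2 or control replicate 1 or 2.

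In SHEP, 5 of the 15 tested genes of this list rose and 0 fell by edgeR (0 at an unadjusted p under 0.05, and by DESeq2) with wild type over no MYCN, with a median log2 change of 0.16. ATF4 averaged 283 ± 21.9 CPM in libraries labelled wild type, 258 ± 17.8 CPM in those labelled 3A and 205 ± 8.72 CPM in those labelled no MYCN. Its log2 change was 0.47 for wild type over no MYCN (SE 0.08, edgeR adjusted p = 2.6e-04) and 0.33 for 3A over no MYCN (SE 0.08, edgeR adjusted p = 0.00582). Between wild type and 3A it was 0.14 (SE 0.08, edgeR adjusted p = 0.23), and the 2 groups overlapped. PPP1R15A, which recruits a phosphatase to the initiation factor eIF2, averaged 123 ± 13.8 CPM in libraries labelled wild type, 50.8 ± 2.77 CPM in those labelled 3A and 52.5 ± 7.22 CPM in those labelled no MYCN. Like SLC7A11 it was called with wild type over no MYCN (log2 change 1.23, SE 0.11, edgeR adjusted p = 2.1e-08) and over 3A (log2 1.28, SE 0.11, edgeR adjusted p = 1.3e-08). Between wild type and 3A, 5 genes of the list were higher and 2 lower, the lower ones numbering 1 without wild type replicate 1 or 2, 3A replicate 2 or 3, or no MYCN replicate 2.

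Downstream of cystine uptake, genes of cysteine and glutathione metabolism moved in both directions. On EXOSC10 depletion 6 of 14 fell and 2 rose, with a median log2 change of -0.13. CHAC1, which degrades glutathione, averaged 7.04 ± 1.6 CPM in shEXOSC10 cells and 43.1 ± 5.1 CPM in control cells (log2 change -2.61, SE 0.12, edgeR adjusted p = 2.9e-28). CTH, which makes cysteine from cystathionine, fell by 0.83 (SE 0.12, edgeR adjusted p = 3.0e-08), and GGT5, a glutamyltransferase of low count, was at 3.17 ± 1.04 CPM in shEXOSC10 cells and 0.323 ± 0.0573 CPM in control cells (log2 change 3.26, SE 0.46, edgeR adjusted p = 1.8e-08). Without control replicate 3, 1 gene rose.

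Of 13 tested in SHEP, 3 rose and 3 fell with wild type over no MYCN, and between wild type and 3A 2 were higher, near the background of 15.8%, and 5 lower. Thioredoxin reductase TXNRD1 averaged 448 ± 55.5 CPM in libraries labelled wild type, 232 ± 19.1 CPM in those labelled 3A and 236 ± 11.3 CPM in those labelled no MYCN. It was called with wild type over no MYCN (log2 change 0.93, SE 0.09, edgeR adjusted p = 1.7e-07) and over 3A (log2 0.95, SE 0.09, edgeR adjusted p = 1.3e-07). Glutathione reductase GSR averaged 139 ± 4.53 CPM in libraries labelled wild type, 138 ± 6.32 CPM in those labelled 3A and 101 ± 3.42 CPM in those labelled no MYCN. It rose over no MYCN with wild type (log2 change 0.46, SE 0.08, edgeR adjusted p = 2.0e-04) and with 3A (log2 change 0.45, SE 0.08, edgeR adjusted p = 4.5e-04). Between wild type and 3A it was not called (log2 0.01, SE 0.08, edgeR adjusted p = 0.91). Of the 5 lower with wild type than with 3A, 3 were called without wild type replicate 2 or 3A replicate 3.

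Targets and regulators of NRF2, the transcription factor of the oxidative stress response that also acts on SLC7A11, fell in 6 of 14 cases on EXOSC10 depletion and rose in 0 by edgeR (0 at an unadjusted p under 0.05, and by DESeq2, with 1 rise without shEXOSC10 replicate 2), with a median log2 change of -0.18. The ferritin chain FTL averaged 387 ± 14.9 CPM in shEXOSC10 cells and 619 ± 23.1 CPM in control cells (log2 change -0.68, SE 0.04, edgeR adjusted p = 1.0e-21). NFE2L2, the gene of NRF2, fell by 0.58 (SE 0.08, edgeR adjusted p = 3.9e-09). With wild type over no MYCN 7 of 15 rose and 0 fell by edgeR (0 at an unadjusted p under 0.05, and by DESeq2), TXNRD1 among them, and NQO1 averaged 234 ± 20.8 CPM in libraries labelled wild type and 163 ± 2.62 CPM in those labelled no MYCN (log2 change 0.53, SE 0.08, edgeR adjusted p = 6.2e-05). Between wild type and 3A 7 were higher and 1 lower, a count of 0 lower without wild type replicate 2 and of 2 without wild type replicate 3.

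Enzymes of glutamine, glutamate and asparagine showed 4 falls and 2 rises among 13 tested on EXOSC10 depletion, with a median log2 change of -0.03. Asparagine synthetase ASNS averaged 86.8 ± 0.448 CPM in shEXOSC10 cells and 281 ± 3.13 CPM in control cells (log2 change -1.70, SE 0.05, edgeR adjusted p = 1.9e-39). GPT2, an alanine transaminase of mitochondria, fell by 1.01 (SE 0.06, edgeR adjusted p = 1.5e-23). The falls numbered 2 without shEXOSC10 replicate 1 or control replicate 2. With wild type over no MYCN 7 of 13 rose and 0 fell by edgeR (0 at an unadjusted p under 0.05, and by DESeq2), and 4 rose without no MYCN replicate 3 or with library totals. ASNS averaged 47.7 ± 6.73 CPM in libraries labelled wild type, 44.3 ± 1.46 CPM in those labelled 3A and 32.0 ± 3.06 CPM in those labelled no MYCN, and was called for wild type (log2 change 0.58, SE 0.12, edgeR adjusted p = 9.4e-04) and for 3A (log2 change 0.47, SE 0.12, edgeR adjusted p = 0.00571) over no MYCN. Between wild type and 3A 5 of 13 were higher.

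A further list held parts, amino acid sensors and regulators of mTORC1, the growth kinase that leucine uptake through SLC7A5 feeds. On EXOSC10 depletion 6 of its 23 tested genes fell and 2 rose, with a median log2 change of -0.05. DDIT4, an inhibitor of mTORC1, averaged 55.3 ± 3.92 CPM in shEXOSC10 cells and 242 ± 7.79 CPM in control cells (log2 change -2.13, SE 0.06, edgeR adjusted p = 2.7e-42). The leucine sensor SESN2 fell by 0.85 (SE 0.07, edgeR adjusted p = 1.9e-15). In SHEP, 5 of 22 genes were lower with wild type than with 3A and 3 were higher, the higher ones numbering 1 without wild type replicate 2 or 3A replicate 2. The background was 14.5% lower and 15.8% higher. LAMTOR4, a subunit of the Ragulator scaffold, averaged 56.6 ± 14.5 CPM in libraries labelled wild type, 103 ± 9.29 CPM in those labelled 3A and 70.1 ± 12.2 CPM in those labelled no MYCN, lower with wild type than with 3A (log2 -0.87, SE 0.14, edgeR adjusted p = 1.0e-04).

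Of 10 partners and ubiquitin ligases of the transporters tested in SHEP, 4 were higher with wild type than with 3A. CD44, which stabilises SLC7A11 at the cell surface and is also on the mesenchymal list, averaged 620 ± 36.8 CPM in libraries labelled wild type and 388 ± 17.3 CPM in those labelled 3A (log2 0.68, SE 0.08, edgeR adjusted p = 1.9e-06). NEDD4L, a ubiquitin ligase of membrane transporters, averaged 104 ± 6.77 CPM in libraries labelled wild type, 48.2 ± 3.32 CPM in those labelled 3A and 54.9 ± 4.36 CPM in those labelled no MYCN, and was called for wild type over 3A (log2 1.11, SE 0.10, edgeR adjusted p = 2.7e-08).

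**Figure D5:**
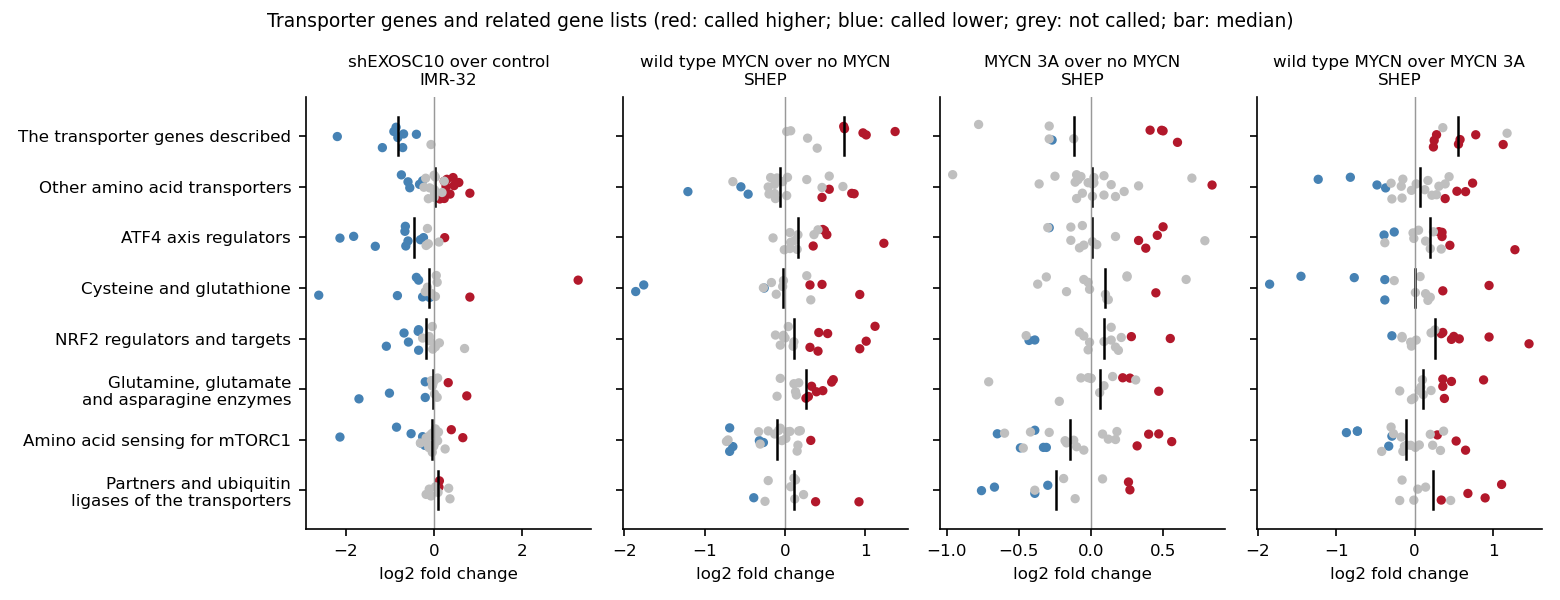
Log2 fold change (x axis) of each tested gene in the transporter set and in the 7 related lists, in the 4 comparisons. Red points were called higher, blue points lower and grey points not called, and black bars are medians. The median of the transporter genes was -0.82 on EXOSC10 depletion and 0.73 with wild type over no MYCN.

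Across the 15 libraries, after each gene's log2 CPM was centred within its cell line, the 5 genes most like SLC7A11 among 8703 were RAI14 (Pearson r = 0.970), BZW1 (0.967), HHIP (0.966), JUN (0.966) and PMAIP1 (0.963). For SLC7A5 they were the transporter SLC1A5 (r = 0.970), CDCA7L (0.969), the tyrosyl-tRNA synthetase YARS1 (0.969), COTL1 (0.967) and the serine hydroxymethyltransferase SHMT2 (0.964). These correlations describe the libraries, which share the 5 groups and their depths, and carry no p. SLC7A11 and SLC7A5 correlated with each other at r = 0.92.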

How the data were processed

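Polyadenylated RNA of 15 libraries was analysed here, out of 89 samples, and 74 samples of other assays were not analysed here. The authors deposited gene counts, made with STAR 2.7.10a and featureCounts 2.0.3 on hg19, per the submitters' processing notes. Per the file headers, the SHEP counts used strand setting 2, a minimum overlap of 10 bases and Ensembl release 87. The IMR-32 table states no settings, and its columns were joined to the polyadenylated RNA samples by the names of the table and columns, which do not exclude the similarly labelled 4sU samples. Read ends were counted singly, so counts are not independent molecules and floors cover counting error only. Symbols were found for 51996 of 57905 gene IDs (89.8%).

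The counts were filtered with filterByExpr, scaled by TMM and tested with edgeR 4.0.16 (quasi-likelihood F test, robust, R 4.3.3), over 17103 genes in IMR-32 and 14923 in SHEP, where one fit held the 3 groups. Calls used a Benjamini-Hochberg adjusted p under 0.05. Alternatives were library totals, DESeq2 size factors, no filter, a replicate block, DESeq2 1.42.0, the compared groups alone, and each library left out. Named genes are the 10 transporters, EXOSC10 and MYCN, up to 3 called genes with the smallest p per list and comparison (shown in further comparisons too), and the 5 likest genes. The members and lists were chosen with earlier results of these data known.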

Additional observations from a re-analysis of the deposited data

How the results depend on the processing

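Of 503 values of the tested transporter genes under alternatives, 465 kept their direction and side of the threshold. The rest were 11 that gained a call, 21 that lost one and 6 that changed sign. The 6 were values that no fit called, all for wild type over no MYCN: SLC1A4 at -0.02 to -0.01 without wild type replicate 1 or no MYCN replicate 1 or 3, SLC38A2 at -0.05 with library totals and -0.03 without wild type replicate 1, and SLC6A9 at -0.18 without no MYCN replicate 1. With 1 library left out each, these genes ran up to 0.26, 0.06 and 1.12. SLC7A11 on EXOSC10 depletion ran from -2.24 to -2.14 on the log2 scale. The call of EXOSC10 itself, not among the 503 values, was lost in 2 of 15 alternatives for 3A over no MYCN. Leaving out 1 library each, the transporter genes called lower on EXOSC10 depletion numbered 8 to 9, those called higher with wild type over no MYCN 5 to 6, those called higher with 3A over no MYCN 4 in each case, and those higher with wild type over 3A 4 to 7. The count called lower with 3A over no MYCN was 1, and was 2 with library totals, with no filter, with a replicate block and with the 2 groups alone, 0 with DESeq2 size factors, and 0 to 2 with a library left out. The cause was not tested. Over all genes, 3806 were called for 3A over no MYCN, and 2166 to 4451 with a library left out, 2166 without no MYCN replicate 1 and 2508 without no MYCN replicate 2. Deviations of libraries from their group means were correlated between groups. Same-numbered libraries correlated at 0.025 to 0.044 in IMR-32 and -0.033 to 0.138 in SHEP. Libraries of different numbers correlated at -0.031 to -0.012 in IMR-32 and -0.134 to 0.062 in SHEP. In IMR-32 6 of 6 and in SHEP 6 of 9 libraries correlated best with their own number. Same-numbered IMR-32 libraries were thus slightly more alike. In SHEP the likeness differed by number. Same-numbered pairs there correlated at 0.039 to 0.138 for replicate 1, 0.062 to 0.113 for replicate 3 and -0.033 to -0.002 for replicate 2. The labels describe no pairing, and the main fits took none, so they ignore any effect shared by a replicate number. With a replicate block 5251 genes were called on EXOSC10 depletion, against 4639 without it, and in SHEP 4184, 4794 and 5414 for wild type over no MYCN, 3A over no MYCN and wild type over 3A, against 3315, 3806 and 4527. SLC7A1 was called with the block for both forms over no MYCN. Counts and genes of the related lists were put through these alternatives after seeing the data. Depth limits SLC6A9 and SLC1A4 in SHEP and leaves SLC7A3 below 3 counts in each library.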
